A study of Mus musculus with 8 samples.

Results

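The cells described here are nuclei of mural cells, which wrap the capillaries and arterioles of the brain, and of the fibroblasts of its leptomeninges, the thin membranes on its surface. They were selected on single-nucleus RNA counts (UMIs, 1 per captured RNA molecule) in mouse hippocampus. A nucleus was kept when at most 5% of its UMIs were mitochondrial and 200 to 7500 genes were detected. Kept nuclei with more than 2 UMIs of the neuronal pair Slc17a7 and Camk2a, or of the endothelial pair Flt1 and Cldn5, could not be members. Any other kept nucleus was chosen as a member when Rgs5, Notch3, Abcc9, Atp13a5 and Vtn (the mural gate) or Dcn, Col1a2, Col3a1 and Slc6a13 (the fibroblast gate) summed to at least 3 UMIs and 0.1% of its UMIs, and it was placed on the side with the larger sum. Of 32041 kept nuclei of all cell types, 359 (1.12%) were members. There were 195 on the mural side and 161 on the fibroblast side, and 3 had equal sums and were on neither.

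The study asked what loss of GSAP, the gamma-secretase activating protein, changes in the hippocampus. Each of 8 mice gave 1 library, and both sexes were used. The 3 WT and 3 GKO mice were 7 months old, and GKO mice lack a run of Gsap exons in all tissues after a cross of the floxed allele with CMV-Cre. There was 1 J20;WT and 1 J20;GKO mouse, both 6 months old. They carry human APP with the Swedish and Indiana mutations under the PDGFB promoter, on a background with and without Gsap, respectively. The dates carried by the deposited files put WT 1 and GKO 1 in the first batch, J20;WT alone in the third, and the other 5 mice in the second.

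Mural cells include pericytes, which share a basement membrane with the capillary endothelium and depend on PDGF-B from it through the receptor Pdgfrb, and smooth muscle cells, which narrow and widen arterioles. Leptomeningeal fibroblasts lay down collagen and laminin at the brain surface, release retinoic acid and carry transporters for solutes of the cerebrospinal fluid. A dissected hippocampus brings along the pia in its fissure and around its larger vessels. Both kinds of nuclei were rare in these libraries.

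The number of members per mouse was small. Mural-side nuclei numbered 35, 29 and 16 in WT 1 to WT 3, 23, 23 and 35 in GKO 1 to GKO 3, 20 in J20;WT and 14 in J20;GKO. Fibroblast-side nuclei numbered 22, 15 and 16 in the WT mice, 41, 16 and 20 in the GKO mice, 20 in J20;WT and 11 in J20;GKO. GKO 1 had the most fibroblast-side nuclei, and it was the only mouse with more of them than mural-side nuclei. Median depth came to 1827 UMIs a nucleus on the mural side and 3136 on the fibroblast side. All nuclei of a side in a mouse were summed to 1 profile, with 39534 (WT 3) to 114585 (WT 1) UMIs on the mural side and 44659 (WT 2) to 168217 (GKO 1) on the fibroblast side. Levels are given as CPM, the UMIs of a gene scaled to the UMIs of that profile (counts-per-million). At this depth 1 UMI is many CPM, and for each of the 28 pairs of mice the profiles differed by more than the counting error of UMIs, with a chi-square per degree of freedom over genes of 1.67 to 6.76 on the mural side and 1.84 to 5.59 on the fibroblast side. This measure does not cover the chance draw of a few nuclei. Xist, the RNA of the inactive X chromosome, had 328 mural-side UMIs in WT 1, 263 in GKO 1, 151 in J20;GKO and 0 in the other 5 mice. Among the WT and GKO mice sex and batch therefore cannot be told apart. Of the kept barcodes, 134 occurred in more than 1 library, 1 of them a member's, and 0 barcodes were members in more than 1.

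As a share of kept nuclei, the mural side made up 0.666%, 0.630% and 0.542% in WT 1 to WT 3 and 0.619%, 0.486% and 0.742% in GKO 1 to GKO 3. The fibroblast side made up 0.419%, 0.326% and 0.542% in the WT mice and 1.10%, 0.338% and 0.424% in the GKO mice. The plot of shares by mouse shows overlapping groups on both sides, with GKO 1 above all others for fibroblasts. The mean mural share was 0.613% ± 0.0640 (SD, n = 3) in WT and 0.616% ± 0.128 in GKO, and the 2-sided exact permutation test gave p = 1. The mean fibroblast share was 0.429% ± 0.108 in WT and 0.622% ± 0.420 in GKO, with an exact permutation p of 0.6 (0.9 adjusted over 3 shares). Within the second batch the fibroblast shares, at 0.326% and 0.542% in WT and 0.338% and 0.424% in GKO, overlapped. Without GKO 1 the GKO mean was lower than the WT mean by 0.0479 percentage points. The mural share of both sides was 59.1% ± 8.20 in WT and 52.8% ± 14.8 in GKO (exact permutation p = 0.6, 0.9 adjusted), and without GKO 1 GKO was the higher by 2.20 percentage points. With 3 mice against 3, the smallest p this test can give is 0.1.

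**Figure D1:**
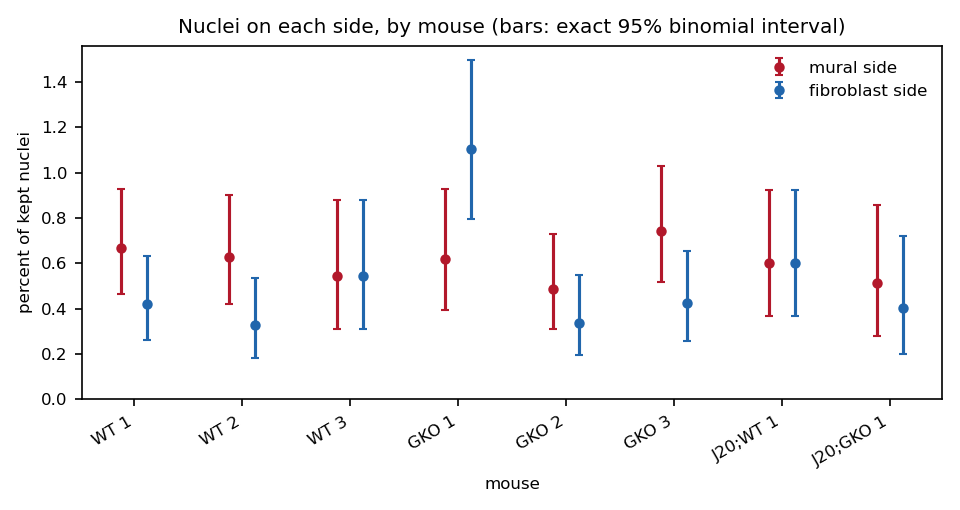
Nuclei on the mural side (red) and on the fibroblast side (blue) as a percentage of kept nuclei in each mouse, with exact 95% binomial intervals (counting error only). The intervals of most mice overlap, and the fibroblast share of GKO 1 (1.10%) is the highest.

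The gate genes placed the nuclei, so their levels only describe the choice and carry no test. Rgs5, a regulator of G-protein signalling, had a mean over 8 mice of 279 ± 106 CPM (SD) on the mural side against 6.11 on the fibroblast side. Notch3, the receptor that mural cells use for endothelial Notch ligands, was at 525 ± 118 against 9.47 CPM. Abcc9, the sulfonylurea-receptor subunit of the ATP-sensitive potassium channel, was at 494 ± 93.0 against 2.34 CPM. Atp13a5, a P-type ATPase, was at 1908 ± 424 CPM on the mural side. On the fibroblast side it was at 507 CPM in J20;GKO and at 103 CPM or less in the other 7 mice. Vtn, which encodes the secreted protein vitronectin, was at 7804 ± 2540 against 885 ± 356 CPM, and so it contributed most of the mural gate UMIs on the fibroblast side. In the endothelial nuclei described below, Vtn was at 19.2 CPM (3 UMIs), and in all kept nuclei together at 21.6 CPM. The endothelial nuclei had to lie outside both gates, so their low Vtn follows in part from the choice.

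Dcn, a small proteoglycan that binds collagen, was at 1774 ± 677 CPM on the fibroblast side against 392 ± 356 on the mural side. The fibrillar collagen genes Col1a2 (532 ± 125 against 155 ± 102 CPM) and Col3a1 (143 ± 73.9 against 61.0 ± 72.5 CPM) went the same way. Slc6a13, a transporter of GABA and taurine, was at 1483 ± 574 against 525 ± 378 CPM. The mural-side level of Dcn was 44.6 CPM at its lowest (J20;GKO), 309 at the median and 911 at its highest (WT 3). WT 3, GKO 1 and J20;WT were the mice with most Dcn on the mural side, and WT 1, WT 2 and J20;GKO had the least.

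At the edge of the gates stood 19 members whose larger sum was exactly 3 UMIs. Just outside were 30 nuclei with a larger sum of 2 UMIs that was still at least 0.1% of their UMIs, and 80 nuclei with 3 UMIs or more that fell under 0.1%. The 28 genes of the fibroblast marker list summed to 4320 CPM in those just inside and to 2066 CPM in those 30 just outside. The pericyte list differed little (848 and 734 CPM), as did the smooth muscle genes (716 and 734), and the fibroblast gate genes were at 822 and 978 CPM. The 6 microglia markers summed to 398 and 2392 CPM.

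The label was checked against 18 pericyte and 28 fibroblast marker genes that the gates do not use. Of the mural-side nuclei 142 had more UMIs from the pericyte list, 49 had more from the fibroblast list, and the rest were equal. Of the fibroblast-side nuclei 149 had more from the fibroblast list and 5 more from the pericyte list. The fibroblast label thus holds by its markers, and the mural label holds for most nuclei on that side, but not for a group that Vtn brought in. If Vtn is left out of the sums, 44 of the 195 mural-side nuclei (22.6%) no longer have the larger sum on the mural side. Of these 44, 26 had no UMI of any other mural gate gene and 42 had a fibroblast gate UMI. Both counts follow in part from how the 44 were chosen, so they do not test the label. By the marker lists, which hold no gate gene, 40 of the 44 had more fibroblast-list than pericyte-list UMIs. The median nucleus of the 44 held 24.5 fibroblast-list and 9.5 pericyte-list UMIs (3.5 without Slc6a20a, which both sides express). In the other 151 mural-side nuclei the medians were 4 and 23, and 9 nuclei had more fibroblast-list UMIs.

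The levels of single genes separate these classes, as the plot of levels by class shows. Kcnj8 stood at 41.0 CPM in the 44 nuclei that Vtn alone decided, at 509 CPM in the other 151 and at 0 on the fibroblast side. At least 1 Kcnj8 UMI was seen in 2 of the 44 nuclei (median depth 2427 UMIs), in 92 of the 151 (1721 UMIs) and in 0 of the 161 (3136 UMIs). Igfbp7, a secreted binding protein of insulin-like growth factors, was at 90.2, 1697 and 65.7 CPM in the same order. Slc6a13 was at 1493, 141 and 1296 CPM, Slc7a11, the cystine and glutamate exchanger, at 4093, 175 and 2565 CPM, and Ptgds, the prostaglandin D synthase of the leptomeninges, at 20662, 972 and 23593 CPM. Slc6a13 is a gate gene, so its level follows from the split. In the other genes the 44 nuclei lay nearer to the fibroblast side than to the other mural-side nuclei. Vtn itself was at 5668, 7749 and 818 CPM. Vtn was present in 102 of the 161 fibroblast-side nuclei. What places Vtn in these 44 nuclei was not tested.

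**Figure D2:**
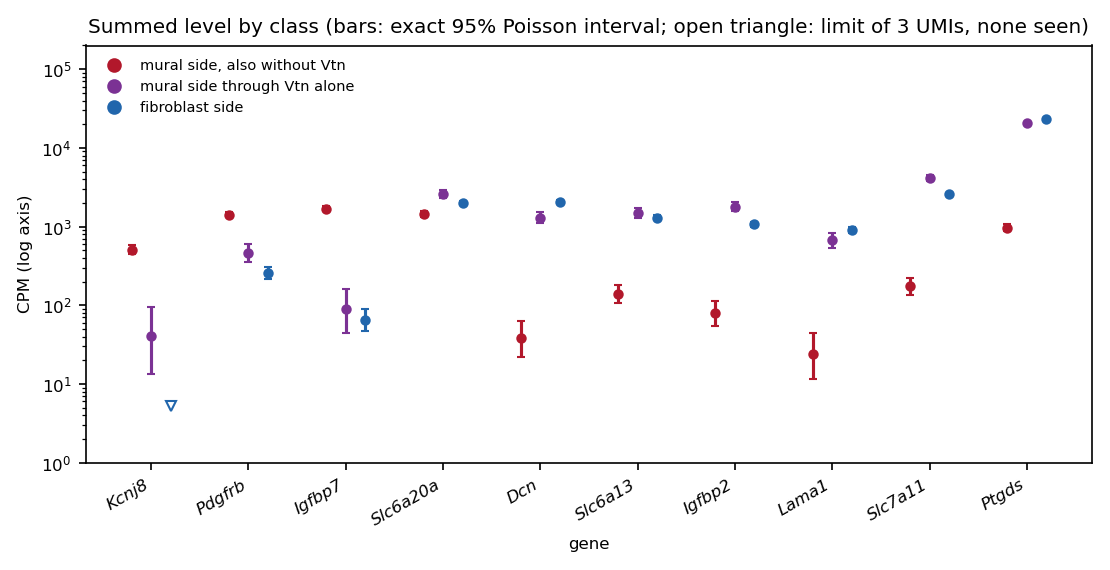
Summed level (CPM, log axis) of 10 genes in mural-side nuclei whose mural sum stays the larger without Vtn (red, 151 nuclei), in those on that side through Vtn alone (purple, 44) and in fibroblast-side nuclei (blue, 161). Bars are exact 95% Poisson intervals, and an open triangle marks the limit that a count of 0 allows (3 UMIs). For Igfbp7 and Ptgds the purple points lie near the blue ones, and the levels of the gate genes Dcn and Slc6a13 follow from the split.

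The share of the mural side that Vtn alone decided differed between mice. It was 3 of 35 nuclei in WT 1 (8.57%), 2 in WT 2 (6.90%), 7 in WT 3 (43.8%), 8 in GKO 1 (34.8%), 6 in GKO 2 (26.1%), 7 in GKO 3 (20.0%), 7 in J20;WT (35.0%) and 4 in J20;GKO (28.6%). WT 1 and WT 2 had few such nuclei, and WT 3, J20;WT and GKO 1 had the most. These were also the mice with most Dcn on the mural side, but Dcn is a gate gene, so that follows from the split. The number of all genes past the threshold in a comparison that involves the mural side is therefore given with the gate as chosen and, beside it, with Vtn left out of it, an alternative chosen after seeing the data, and so are most lists. The values of single mice are given with the gate as chosen only. Without Vtn there were 139 mural-side and 200 fibroblast-side nuclei, and 3 with equal sums, since some of the other 151 fell below the gate. The mural side thus means the side of the gate and not a pure cell type.

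Genes that define smooth muscle had few UMIs, and contractile genes that other cells share had more. Of the defining genes, Acta2 (smooth muscle actin) had 3 UMIs over all mural-side nuclei, Tagln (transgelin) 2, Cnn1 (calponin) 1 and Myh11 (smooth muscle myosin heavy chain) 17, of 534358 UMIs. Of the others Myl9, a myosin light chain, had 78 UMIs, Tpm1, a tropomyosin, 62 and Mylk, the myosin light chain kinase, 57. The 18 smooth muscle genes summed to 1422 UMIs (2661 CPM), of which Cald1, the actin-binding caldesmon, held 719. In 60 endothelial nuclei with 156126 UMIs, Acta2 had 26 UMIs. Over all kept nuclei, 16 held at least 3 UMIs of Acta2, Tagln and Myh11 together, and 2 of those were members. Of the pericyte markers Higd1b had 50 UMIs on the mural side, Ndufa4l2 88 and Cspg4 177. Among fibroblast-side nuclei Higd1b had 1 UMI, Ndufa4l2 0 and Cspg4 5.

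Outside the gate, Kcnj8 was among the genes with no UMI on the fibroblast side. It encodes the pore of the ATP-sensitive potassium channel whose sulfonylurea-receptor subunit is Abcc9, a gate gene. Both genes lie on chromosome 6, with starts 131 kb apart on the same strand. Their promoters are shown because the products form 1 channel and both had 2 UMIs or fewer on the fibroblast side, and the promoter of the fibroblast gene Cemip, which encodes a hyaluronan-binding protein, is shown beside them. The sequences come from RefSeq (build GRCm38.p6) and run from 250 bases before to 50 bases after the start, 5′ to 3′ on the strand of the gene. Kcnj8 is at chr6:142571565-142571864 (minus strand), Abcc9 at chr6:142702225-142702524 (minus) and Cemip at chr7:84086456-84086755 (minus). Capitals mark the letters TGGGAA, or TTCCCA where they lie on the other strand, the core to which RBPJ, the DNA-binding partner of Notch receptors, can bind.
Kcnj8: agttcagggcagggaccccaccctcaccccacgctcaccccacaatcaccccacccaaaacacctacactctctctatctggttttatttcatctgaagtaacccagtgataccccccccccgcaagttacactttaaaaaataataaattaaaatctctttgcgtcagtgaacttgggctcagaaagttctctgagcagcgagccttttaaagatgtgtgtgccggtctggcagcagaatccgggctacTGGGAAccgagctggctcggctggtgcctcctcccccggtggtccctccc
Abcc9: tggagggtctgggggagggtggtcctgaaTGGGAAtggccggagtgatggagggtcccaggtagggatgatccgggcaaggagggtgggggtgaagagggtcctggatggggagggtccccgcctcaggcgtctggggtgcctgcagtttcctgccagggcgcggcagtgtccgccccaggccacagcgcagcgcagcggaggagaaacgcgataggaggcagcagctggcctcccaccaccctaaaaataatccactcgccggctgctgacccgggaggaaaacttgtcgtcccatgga
Cemip: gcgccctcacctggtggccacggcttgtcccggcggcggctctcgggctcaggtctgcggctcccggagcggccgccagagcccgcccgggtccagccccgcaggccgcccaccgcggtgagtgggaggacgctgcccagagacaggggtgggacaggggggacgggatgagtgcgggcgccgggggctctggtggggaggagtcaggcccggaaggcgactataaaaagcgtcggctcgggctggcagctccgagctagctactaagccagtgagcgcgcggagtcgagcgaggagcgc
The letters occur 1 time in the Kcnj8 window, 1 time in the Abcc9 window and 0 times in the Cemip window. In 2 further genes they did not follow the sides, with 0 matches for the mural-side gene Slc38a11 and matches in 2 of the 3 windows of the fibroblast gate gene Slc6a13. They are common, since 25.6% of all 32851 promoters of this length hold them on either strand. Of the 12 genes with the largest rise on the mural side, by the rule for named genes, 11 were matched to promoters, and 5 (45.5%) had the letters in at least 1 of them. Of the 12 with the largest fall 8 were matched, and 1 (12.5%) had them. Over all genes past the threshold defined below the shares were 30.5% of 59 matched genes (higher) and 31.1% of 74 (lower), beside 28.3% of all genes. A match is only a description of the letters.

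Genes were compared between the sides within each of the 8 mice by edgeR's quasi-likelihood test with the mouse in the fit. A gene is past the threshold when its p, adjusted by Benjamini-Hochberg, is under 0.05 and its log2 fold change is above 0.3 or below −0.3. The gate genes and the 4 genes that excluded nuclei were left out. The filter on low counts lets a gene in through the group where it is high, here and in the later comparisons. Counts and medians of lists therefore describe only the genes that passed it. Of 874 genes tested, 184 (21.1%) were past the threshold, 86 (9.84%) higher and 98 (11.2%) lower on the mural side, and 122 of the 184 went the same way in all 8 mice. The median log2 fold change of all tested genes was 0.01. DESeq2 called 192. With Vtn left out of the gate 282 of 839 genes were past it (126 higher, 156 lower). Of the original 184, 159 were again past it with the same sign, and of the 164 tested both ways 146 had a larger fold change without Vtn. Of the genes named below, Cemip, Ptgds, Col1a1, Col4a5, Col4a6, Lamc1, Nupr1, Slc16a11 and Tgfbr3 lost the call under at least 1 alternative (Cemip and Ptgds only without the filter on low counts).

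Ion channels, receptors and enzymes that set the tone of vessels were among the genes higher on the mural side. Kcnj8 was between 194 (GKO 1) and 541 CPM (GKO 2) on the mural side, with a median of 415 and a mean of 402 ± 132 (SD, n = 8), against 0 of 578516 UMIs on the fibroblast side. It was thus at least 77.6-fold higher, counting a floor of 3 UMIs over the side (adjusted p = 0.000366). In the plot of levels by mouse, every mural-side value of Kcnj8 lies above every fibroblast-side value.

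Other genes of that role were on both sides but higher on the mural side in 8 of 8 mice. Pde8b, a phosphodiesterase of cAMP, was at 1558 ± 488 against 142 ± 46.5 CPM (log2 fold change 3.48, SE 0.26), and Pde4d, another, at 1159 ± 307 against 204 ± 74.5 CPM (2.57, SE 0.25). Cacna1c, the pore of the L-type calcium channel, was higher by 2.20 (SE 0.25), Gucy1a2, a subunit of the nitric oxide receptor guanylyl cyclase, by 1.96 (SE 0.31), and Itpr2, a calcium release channel, by 1.29 (SE 0.21). Of the 35 genes of the vascular tone list 9 had enough counts to be tested, of which 6 were higher and 0 lower, with a median of 1.96 (2.75 without Vtn, with 10 of 12 higher). Genes for the receptors of vasoconstrictors were below the filter and not tested. Ednra, a receptor of endothelin, had 99 mural-side UMIs against 17, Adra1a 39 against 56 and Adra1b 2 against 11, and Agtr1a and Adra1d had 0 on either side. P2ry14, a receptor for UDP-sugars (3.63, SE 0.47), and Grm7, a metabotropic glutamate receptor (3.59, SE 0.40), were higher in 8 of 8 mice.

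Transport and enzyme genes on the mural side included Slc38a11, an orphan member of an amino acid transporter family. It was between 446 (J20;GKO) and 901 CPM (GKO 2), with a median of 544 and a mean of 610 ± 169, against 0 on the fibroblast side. It was at least 118-fold higher (adjusted p = 0.00022). Art3, of the ADP-ribosyltransferase family, was at 386 ± 166 CPM against 0 and was at least 72.2-fold higher (adjusted p = 0.000375). None of the 8 mice overlapped between sides in these genes, and Art3 was highest in WT 3. Inpp4b, a phosphoinositide phosphatase (3.65, SE 0.33), Adap2, a GTPase-activating protein of Arf (3.51, SE 0.41), and Fry (3.47, SE 0.29) were also higher in 8 of 8 mice.

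Igfbp7 was between 894 (GKO 1) and 1821 CPM (GKO 2) on the mural side, with a median of 1417 and a mean of 1398 ± 360, against 59.0 ± 29.5 CPM. Its log2 fold change was 4.53 (SE 0.31, adjusted p = 1.38e-06, 8 of 8 mice). Pdgfrb was between 794 (WT 1) and 1607 CPM (WT 2) on the mural side and between 178 and 373 CPM on the fibroblast side, so that the sides did not overlap. Its log2 fold change was 2.27 (SE 0.20, adjusted p = 7.2e-06), and 2.58 without Vtn. Of the 6 genes for PDGF ligands and receptors 3 were tested. Pdgfra, the other receptor, went the opposite way (−1.51, SE 0.33, 8 of 8 mice lower), and Pdgfd, a ligand, was not past the threshold. Without Vtn 2 were tested, 1 higher and 1 lower.

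Transcription factors and regulatory RNAs were Ebf1 (3.03, SE 0.39), Carmn, a long noncoding RNA of mural cells (2.51, SE 0.32), and Tbx3os1, a noncoding transcript from the opposite strand at Tbx3 (4.84, SE 0.37). Each was higher in 8 of 8 mice, and whether the strand was used in counting is not stated for these files. Of the 18 genes of the pericyte list 7 were tested and 6 were higher, with a median of 3.03 (3.56 without Vtn). Kcnj8 and Art3 had 0 UMIs on the fibroblast side, so they passed the filter through the mural side alone. Of the 18 smooth muscle genes 2 were tested, and both were higher: Cald1 (1.64, SE 0.26), and Dmd, dystrophin (2.51, SE 0.31), and both were higher without Vtn. These 2 are not restricted to smooth muscle.

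**Figure D3:**
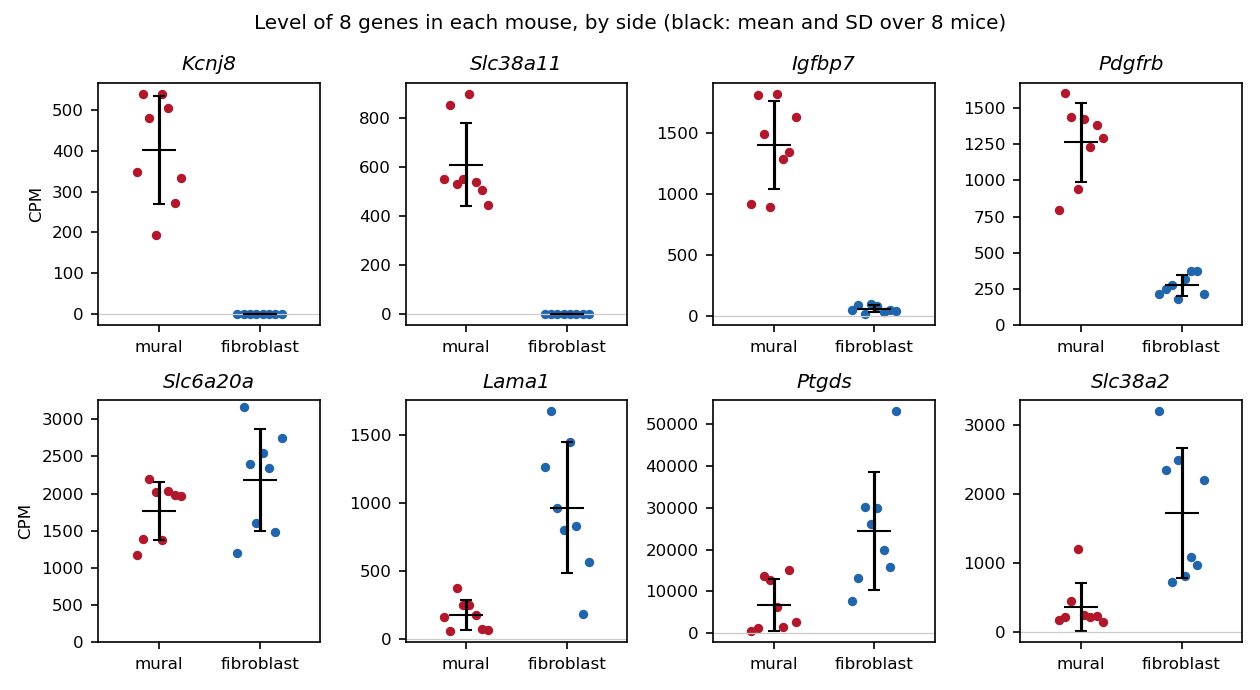
Level (CPM) of 8 genes on the mural side (red) and the fibroblast side (blue) in each of 8 mice, with the mean and SD in black. Kcnj8 and Slc38a11 had no UMI on the fibroblast side, Igfbp7 and Pdgfrb do not overlap, Slc6a20a does, and Lama1, Ptgds and Slc38a2 are spread widely over the mice.

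Among the 7 pericyte-list genes tested, the 1 that was not higher was Slc6a20a, a transporter of proline and other imino acids. It was between 1178 and 2201 CPM on the mural side (median 1973) and between 1202 and 3157 CPM on the fibroblast side (median 2366). The sides overlapped, with a log2 fold change of −0.19 (adjusted p = 0.549, lower in 6 of 8 mice). Of the fibroblast list, Zic1, a zinc finger factor of the meninges, was likewise shared, at 358 ± 56.8 against 401 ± 132 CPM (−0.04, adjusted p = 0.932). Neither gene told the sides apart at this depth.

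Genes of the extracellular matrix and its turnover were among those lower on the mural side. Lama1, a laminin chain of the pial basement membrane, was between 185 (J20;WT) and 1679 CPM (WT 2) on the fibroblast side, with a median of 897, against 56.9 to 379 CPM on the mural side. Its log2 fold change was −2.36 (SE 0.32, adjusted p = 0.000226, 8 of 8 mice), and −5.03 with Vtn left out of the gate. Lum, a proteoglycan of collagen fibrils, differed by −2.50 (SE 0.53, 8 of 8), Aebp1, a collagen-binding protein, by −2.27 (SE 0.58, 8 of 8), and Col1a1, a fibrillar collagen chain, by −1.73 (SE 0.51, 7 of 8). Sned1, a matrix glycoprotein (−2.01, SE 0.41), and Serpinf1, a secreted serpin (−1.98, SE 0.41), were lower on the mural side in 8 of 8 mice. Cemip was between 413 (WT 3) and 2754 CPM (WT 2) on the fibroblast side, a wide range in which the WT mice held both ends. It differed by −2.20 (SE 0.54, adjusted p = 0.0132, 7 of 8 mice), and by −6.89 without Vtn. Of 16 interstitial collagen genes 2 were tested and 1 was lower (median −1.43), and both were lower without Vtn (median −3.86).

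Of 21 basement membrane genes 7 were tested, 3 were lower on the mural side (Lama1, Col4a5 and Col4a6) and 1 was higher (Lamc1, 0.72, SE 0.23, adjusted p = 0.0473, 6 of 8 mice), and the median was 0.15. The call of Lamc1 was lost under 12 alternatives, the gate without Vtn among them. Without Vtn 0 of 6 tested were higher and 2 lower, with a median of −0.12. Gjb2 (−1.84, SE 0.45) and Gjb6 (−1.18, SE 0.29), connexins of leptomeningeal gap junctions, were lower on the mural side in 8 of 8 mice.

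Ptgds varied widely between mice. It was at 7611 CPM at its lowest (WT 1), 23074 at the median and 53170 at its highest (J20;GKO) on the fibroblast side. On the mural side it was at 428 (WT 1), 4553 and 15115 CPM (J20;WT). The ranges overlapped, although Ptgds was lower on the mural side within each of the 8 mice (−2.45, SE 0.51, adjusted p = 0.00552). For mural-side Ptgds WT 3, GKO 1 and J20;WT were high and WT 1, WT 2 and GKO 3 low. Without Vtn in the gate the log2 fold change was −5.93. Igfbp2, another binding protein of insulin-like growth factors, missed the threshold (−1.27, adjusted p = 0.0635, 7 of 8 mice), and without Vtn was at −5.18. Over the 28 genes of the fibroblast list, 15 were tested, 0 were higher and 12 lower, with a median of −1.73. Without Vtn, 10 of 12 tested were lower and the median was −4.55.

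Signalling genes on the fibroblast side included Bmp6, a BMP ligand, at 1196 ± 312 against 402 ± 342 CPM (−1.86, SE 0.42, adjusted p = 0.00774, 8 of 8 mice). Tgfbr3, a co-receptor of TGF-beta, differed by −1.18 (SE 0.33, 8 of 8). Of 28 genes of the TGF-beta and BMP list 5 were tested, and 0 were higher and 2 lower, with a median of −0.90 (2 of 3 lower and −2.02 without Vtn). Aldh1a2, the enzyme that makes retinoic acid in the meninges, was the 1 gene of 15 on the retinoic acid list that was tested (−1.77, SE 0.45, adjusted p = 0.0145, 7 of 8 mice), and without Vtn 0 of the list were tested. Of 16 Notch pathway genes other than Notch3, 2 were tested, and Maml2, a co-activator, was higher on the mural side (0.99, SE 0.25, 7 of 8 mice), and without Vtn 1 of 2 was again higher. With Vtn in the gate, the factor Foxp2 had the largest fall of those named (−2.81, SE 0.35, adjusted p = 0.000128, 8 of 8). Without Vtn, Cemip, Ptgds, Igfbp2 and Lama1 fell further than Foxp2. With Vtn, Eya2, a co-activator with phosphatase activity, fell by 2.52 on the log2 scale (SE 0.57, 7 of 8). The other named genes lower in 8 of 8 mice were Clmp (−2.12), Fbxl7 (−2.01), Prkag2 (−1.89), Ranbp3l (−1.74), Nupr1 (−1.40) and Cped1 (−1.21).

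Solute carriers went both ways, and Slc38a11, described above, is not on their list. Slc38a2, a transporter of neutral amino acids, was between 723 (WT 3) and 3198 CPM (WT 1) there, with a median of 1640, against 156 to 1207 CPM on the mural side, whose highest value was in GKO 1. It differed by −2.28 (SE 0.39, adjusted p = 0.00152, 8 of 8 mice). Slc7a11 was at 2909 ± 1460 against 1258 ± 929 CPM (−1.31, SE 0.32, 7 of 8). The carboxylate and sulfate transporters Slc13a3 (−1.40) and Slc13a4 (−1.39) and Slc16a11 (−1.43) were lower on the mural side, and Slc16a12, a creatine transporter, was higher (1.01, SE 0.22). In all, 11 of 24 genes were tested, 1 was higher and 5 lower, with a median of −1.31 (−1.20 without Vtn, with 6 lower).

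The lists that bear on disease had few genes tested, and their counts are read beside the 21.1% of all tested genes that were past the threshold. Of 23 genes linked to Alzheimer's disease or amyloid clearance 6 were tested, and 1 was past the threshold, Fermt2, an integrin activator (1.27, SE 0.23, higher in 8 of 8 mice), with a median of 0.13. Without Vtn 1 was higher and 1 lower. Apoe, a lipid carrier and the most abundant gene of that list, was at 5705 ± 2012 CPM on the mural side and 6629 ± 2759 on the fibroblast side. Of 12 genes of hereditary small vessel disease and brain calcification found in the files 3 were tested and Pdgfrb alone was higher, with a median of 0.78 (0.73 without Vtn, again with 1 higher).

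The plot of fold changes with and without Vtn shows how each gene moved when Vtn was left out, which took the 44 nuclei and some others off the mural side and enlarged the fibroblast side. Most genes higher on the mural side lie close to the diagonal, and most genes lower on it lie well below. Igfbp7 was at 4.53 with and 5.07 without Vtn and Pdgfrb at 2.27 and 2.58, whereas Lama1 moved from −2.36 to −5.03 and Foxp2 from −2.81 to −4.78. Cped1, a fibroblast gene also present in the other mural-side nuclei, moved less, from −1.21 to −1.76.

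**Figure D4:**
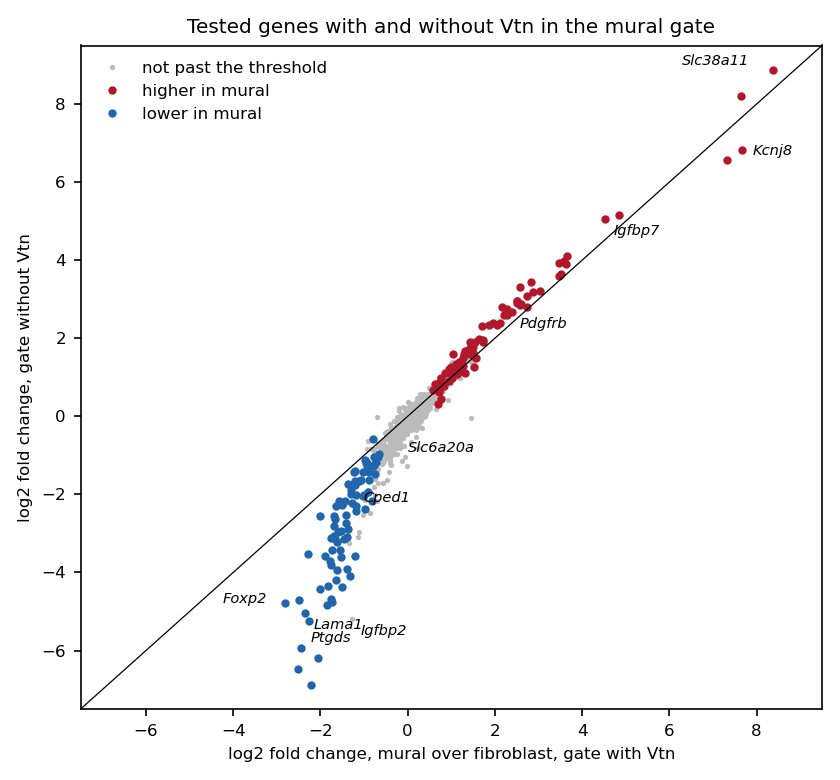
Fitted log2 fold change, mural over fibroblast, of each gene tested under both gates, with Vtn in the mural gate (x axis) and without it (y axis). Red and blue points are past the threshold with Vtn, grey points are not, and the line marks equal values. For genes with no UMI on 1 side, such as Slc38a11 and Kcnj8, the fitted value is no measured fold. Most blue points lie below the line, as Ptgds does (−2.45 against −5.93).

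The fibroblast side itself was not uniform. Slc47a1, a transporter that extrudes organic cations, had 89 UMIs in 14 of the 161 nuclei and 0 on the mural side. These nuclei were singled out after their values were seen, so the differences are described with no test. They came from WT 1 (6 nuclei), GKO 1 (3), J20;WT (2), WT 2 (1), GKO 3 (1) and J20;GKO (1), and WT 3 and GKO 2 had 0. Slc6a13 was at 47.2 CPM (exact 95% Poisson interval 9.74 to 138) in the 14 nuclei and at 1451 (1348 to 1558) in the other 147, with a UMI in 1 of 14 and 120 of 147 nuclei. Median depths were 5256 and 3044 UMIs. Slc6a13 is a gate gene, so a nucleus without it is on this side through Dcn, Col1a2 or Col3a1. The part of depth in this difference was not tested.

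The 14 nuclei also had little of other fibroblast-side transcripts. Slc6a20a was at 78.7 against 2212 CPM, Ranbp3l at 31.5 against 1443, Igfbp2 at 31.5 against 1192, Ptgds at 1228 against 26352, and Vtn had 0 UMIs against 918 CPM. The gate's other genes were in both classes, with Dcn at 1275 against 2173 CPM and Col1a2 at 708 against 517. Higher in the 14 nuclei were Mgp, the matrix Gla protein (4628 against 759 CPM), Slc38a2 (5793 against 1416), Slc4a10, a bicarbonate transporter (2786 against 163), Bnc2, a zinc finger factor (1810 against 200), and Slc26a7, an anion exchanger (425 against 15.5). The intervals of these genes did not overlap between the classes. Abcb1a, the efflux pump P-glycoprotein, was at 299 against 21.4 CPM, with UMIs in 7 of 14 and 6 of 147 nuclei. The plot of the fibroblast side by Slc47a1 shows both directions.

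**Figure D5:**
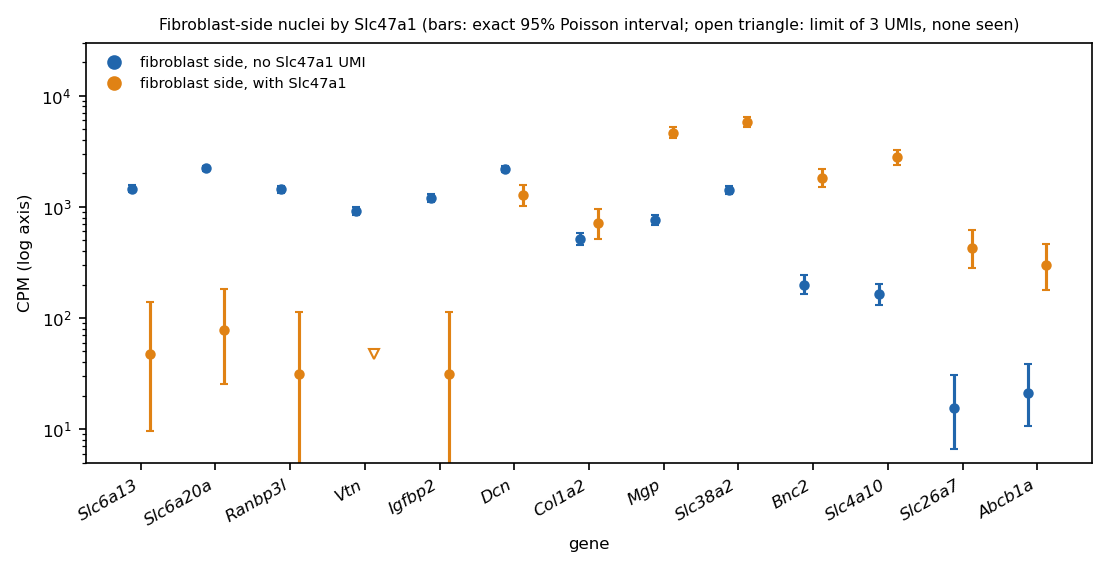
Summed level (CPM, log axis) of 13 genes in fibroblast-side nuclei with a Slc47a1 UMI (orange, 14 nuclei) and without one (blue, 147). Bars are exact 95% Poisson intervals (counting error only), and the open triangle marks the limit that a count of 0 allows (3 UMIs). Slc6a13, Slc6a20a, Ranbp3l and Igfbp2 are low in the orange class, and Mgp, Bnc2 and Slc4a10 are high.

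Both sides were then compared with endothelial nuclei, chosen by Flt1 and Cldn5 (at least 3 UMIs and 0.1%) among kept nuclei outside both gates, in the 5 mice with at least 5 such nuclei (14, 6 and 7 in WT 1 to WT 3, 10 in GKO 2 and 12 in GKO 3). For the mural side 118 of 404 genes (29.2%) were past the threshold, 50 (12.4%) higher and 68 (16.8%) lower, and 116 went the same way in all 5 mice. DESeq2 called 135, and with Vtn left out of the gate edgeR called 111 of 292 (50 higher, 61 lower). The fibroblast side gave 169 of 455 (37.1%), 89 (19.6%) higher and 80 (17.6%) lower, of which 161 went the same way in all 5 mice. DESeq2 called 186. These comparisons share the endothelial nuclei, so their values are set side by side only.

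Slc6a20a had 0 endothelial UMIs, and it was at least 63.1-fold higher on the mural side and at least 88.7-fold higher on the fibroblast side (edgeR adjusted p = 0.00345 and 2.78e-05, higher in 5 of 5 mice for both). Zic1 was at least 14.4-fold and at least 19.1-fold higher, and Zic4, its neighbour in the zinc finger family, at least 17.1-fold and at least 23.4-fold. Colec12, a scavenger receptor, had 1 endothelial UMI, a ratio of 105 (counting interval 18.8 to 4170) on the mural side and of 127 (22.7 to 5049) on the fibroblast side. These genes, which did not separate mural from fibroblast nuclei, separated both from endothelium. The endothelial nuclei held RNA of other cells too. Over all 8 mice their astrocyte markers summed to 5169 CPM, against 3735 (mural) and 2159 (fibroblast), and their neuron markers to 954 against 2380 and 1388. Their OPC markers reached 3962 CPM in WT 3, and the smooth muscle genes 2887 in WT 1. The part of this RNA in the ratios was not tested.

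On the mural side Kcnj8 was at least 18.8-fold higher than in endothelium, Adap2 at least 26.1-fold, Tbx3os1 at least 24.3-fold and Il34, a ligand of the receptor Csf1r, at least 19.1-fold. Il34 was also on the fibroblast side, with 206 UMIs against 268 on the mural side. Pdgfrb was at 1299 ± 312 against 61.1 ± 60.4 CPM (log2 fold change 4.24, SE 0.69, edgeR adjusted p = 0.00241, 5 of 5 mice). Cald1 was higher by 3.85 (SE 0.56) and Cacna1c by 3.33 (SE 0.65), in 5 of 5 mice. Of the pericyte list 5 genes were tested and 4 were higher (median 4.24, all tested −0.09, and 5 of 6 without Vtn). Of 8 endothelial markers 4 were tested and 4 lower (median −6.32, and 3 of 3 without Vtn), led by Abcb1a at −7.45 (1 UMI against 98). Both groups were chosen on Flt1 and Cldn5, so the fall of these markers follows in part from the rule. The glucose transporter Slc2a1 fell by 4.24 on the log2 scale.

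On the fibroblast side Cemip was at least 55.8-fold higher than in endothelium. Ptgds was at 20174 ± 9989 against 301 ± 320 CPM (6.45, SE 0.84, edgeR adjusted p = 4.66e-05, 5 of 5 mice). Igfbp2 (6.17, SE 0.68), Lama1 (6.02, SE 0.73), Slc7a11 (5.93, SE 0.75) and Bmp6 (4.83, SE 0.65) were higher in 5 of 5 mice. Of the fibroblast list 9 genes were tested, of which 8 were higher and 0 lower, with a median of 5.10 (4.25 with the genes at 0 set to their bounds, all tested 0.10). Adgrl4, a receptor of endothelial cells, had 0 fibroblast-side UMIs and was at least 132-fold lower. Ebf1, high on the mural side, was lower on the fibroblast side than in endothelium (−2.72, SE 0.44, 5 of 5 mice).

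Before GKO and WT are compared, Gsap itself was read in each mouse. On the mural side it was at 26.2, 71.1 and 0 CPM in WT 1 to WT 3 (3, 5 and 0 UMIs), 0, 18.0 and 65.9 in GKO 1 to GKO 3 (0, 1 and 6 UMIs), 136 in J20;WT (7 UMIs) and 89.2 in J20;GKO (4 UMIs). On the fibroblast side it was at 12.8, 44.8 and 17.2 CPM in the WT mice, 5.94, 42.1 and 50.8 in the GKO mice, 0 in J20;GKO and 79.5 in J20;WT. The WT and GKO values overlapped on both sides, so these counts do not separate the libraries labelled GKO. Whether the counted ends of transcripts lie outside the deleted exons was not tested.

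Between libraries labelled GKO and WT, 0 of 1228 genes (0%) on the mural side and 0 of 1010 (0%) on the fibroblast side were past the threshold with edgeR, and 0 with DESeq2 on either side. With Vtn left out of the gate it was 0 of 785 and 0 of 1498 with edgeR. Other alternatives did call genes: 12 (mural) and 11 (fibroblast) without the filter on low counts, and on the fibroblast side 2 without WT 3 and 1 without GKO 2. At an unadjusted p under 0.05 edgeR had 36 and 33 genes and DESeq2 17 and 18. With the batch as a term in the fit edgeR again called 0 on both sides (38 and 45 genes at an unadjusted p under 0.05). The smallest adjusted p with edgeR was 0.993 on the mural side and 0.641 on the fibroblast side. Without overlap between the 3 WT and the 3 GKO mice were 92 mural-side genes (7.49%; 51 higher and 41 lower in GKO) and 89 fibroblast-side genes (8.81%; 25 higher and 64 lower).

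The pericyte markers Pdgfrb and Kcnj8 come first. Pdgfrb was at 794, 1607 and 1442 CPM in WT and at 939, 1424 and 1230 in GKO. Kcnj8 was at 349, 540 and 481 CPM in WT and 194, 541 and 505 in GKO. In both genes the groups overlapped, and WT 1 and GKO 1, the mice of the first batch, were the lowest. Of the pericyte list 12 genes were tested, and their median log2 fold change was −0.11 (all tested −0.02). The vascular tone list had 15 genes tested and a median of −0.25. In it Cacna1c did not overlap, at 655, 569 and 531 CPM in WT and 522, 343 and 307 in GKO, and Gucy1a2 did not either, at 628, 384 and 354 in WT and 313, 216 and 340 in GKO. Neither was past the threshold. In the 44 nuclei that Vtn alone decided Cacna1c was at 148 CPM and Gucy1a2 at 115, against 613 and 485 in the other mural-side nuclei. The fibroblast markers summed on the mural side to 2199, 2545 and 6678 CPM in WT and 5857, 3659 and 4139 in GKO, led by Cped1, and 8 of 28 were tested, with a median of 0.26. For the solute carriers 10 were tested, with a median of 0.49. The part of these nuclei in the values of Cacna1c and Gucy1a2 was not tested. Apoe was at 2208, 5673 and 3516 CPM in WT and 4963, 7174 and 7686 in GKO. These ranges overlapped (log2 fold change 0.79, SE 0.41, edgeR adjusted p = 0.993).

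On the fibroblast side Bnc2 was at 409, 963 and 344 CPM in WT and at 184, 105 and 0 in GKO. All GKO values lay below all WT values (−2.18, SE 0.68, edgeR adjusted p = 0.956), and without the filter on low counts Bnc2 was past the threshold. Bnc2 is also a gene of the nuclei with Slc47a1, which made up 6 of 22, 1 of 15 and 0 of 16 fibroblast-side nuclei in WT and 3 of 41, 0 of 16 and 1 of 20 in GKO. Among other genes high in those nuclei, Slc4a10 was at −1.54 (SE 1.20), Col25a1 at −1.80 (SE 1.05), Mgp at −1.01 (SE 0.74), Slc38a2 at −0.39 (SE 0.56), Eya2 at −0.64 (SE 0.55) and Prkg1 at −0.62 (SE 0.42), and their WT and GKO values overlapped. Fbxl7 at −1.63 (SE 0.38, edgeR adjusted p = 0.641) and Foxp2 at −0.56 (SE 0.31), also high in those nuclei, did not overlap. With the gate of 5 UMIs and 0.2%, for GKO against WT, fibroblast, Fbxl7 was at −0.17, and Foxp2 (0.12), Slc38a2 (0.16) and Eya2 (0.047) had the reverse sign. Fbxl7 was past the threshold without the filter on low counts. Slc26a7 and Abcb1a were below the filter. The part of these nuclei in the result for Bnc2 was not tested. Lum was at 563, 806 and 534 CPM in WT and 392, 379 and 169 in GKO, without overlap (−0.89, SE 0.35, edgeR adjusted p = 0.998). Of the fibroblast list 16 genes were tested, with a median of −0.36 (all tested −0.00), of the solute carriers 13 (median −0.15) and of the TGF-beta and BMP list 5 (median −0.37).

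Signal of other cell types was measured with marker lists. Of the members 65 held at least 5 UMIs and 0.5% of UMIs from the markers of neurons, astrocytes, oligodendrocytes, microglia or endothelium, and their median depth was 4634 UMIs against 2231 in the rest. The 6 choroid plexus and ependyma markers summed on the mural side to 4372, 7693 and 455 CPM in WT, 19629, 234 and 12232 in GKO, 739 in J20;WT and 66.9 in J20;GKO. Most of it was Ttr, the transthyretin of the choroid plexus, and 10 nuclei held 4394 of the 4734 Ttr UMIs of all members (4 nuclei in GKO 1, 4 in GKO 3, 1 in WT 1 and 1 in WT 2). The 6 oligodendrocyte markers summed on the mural side to 1231, 2545 and 3389 CPM in WT and 179, 2632 and 176 in GKO. Of these 5 were tested, with a median log2 fold change of −1.21, and 0 were past the threshold. Of the 8 neuron markers 1 was tested on the mural side (−1.58), and WT 1 held 7366 CPM of the list against 711 to 1341 in the other mice. Ttr was higher in GKO on average, by 1.43 (SE 1.90) on the mural side and 4.03 (SE 1.66) on the fibroblast side, neither past the threshold. The 6 astrocyte markers summed to between 481 CPM (WT 3) and 8070 CPM (J20;GKO) on the mural side, led by Gpc5, and to between 672 (WT 2) and 5046 CPM (J20;WT) on the fibroblast side. Between the sides 4 of them were tested and 0 were past the threshold (median 0.62). The endothelial markers stayed at 144 to 313 CPM on the mural side, against 5809 in endothelial nuclei.

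The pair of J20 mice allows no test, since each genotype has 1 mouse. Their libraries also lie in different batches, and their sex-linked genes differ, with Xist high in J20;GKO and at 0 in J20;WT. Genotype, batch and sex therefore cannot be told apart in this pair, and the exact 95% Poisson intervals cover counting error only. Of kept nuclei, the mural side held 0.600% (exact binomial interval 0.367% to 0.925%) in the J20;WT mouse and 0.513% (0.281% to 0.859%) in the J20;GKO mouse. The fibroblast share was 0.600% (0.367% to 0.925%) and 0.403% (0.201% to 0.720%). The intervals overlapped on both sides.

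On the mural side the pericyte list summed to 6750 CPM (6058 to 7499) in J20;WT, beside 7535 (6753 to 8383) for J20;GKO, with overlapping intervals, as they were for Pdgfrb at 1381 (1079 to 1742) and 1293 (982 to 1672) and for Kcnj8. Ptgds was at 15115 (14071 to 16216) and 2742 CPM (2279 to 3272), and Slc7a11 at 1809 (1460 to 2216) and 825 (581 to 1137), so J20;WT was higher in both. The 28 fibroblast markers summed to 5758 (5121 to 6453) and 3723 CPM (3180 to 4333). Of these, Ranbp3l alone had intervals apart, at 1050 (789 to 1371) and 268 (138 to 467). Cped1 differed little (700 and 647 CPM), and Eya2 (58.4 and 201) and Pdgfra (97.3 and 156) were higher in J20;GKO, with overlapping intervals. Aebp1, which is not on the list, was at 331 (193 to 529) and 22.3 (0.564 to 124). The intervals of Lama1, Igfbp2 and Bmp6 overlapped, and the part of fibroblast-like nuclei in these differences was not tested. Htra1, a secreted protease, was at 350 (208 to 553) and 1204 CPM (904 to 1571), and J20;GKO was higher.

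On the fibroblast side Ptgds went the other way, at 15749 CPM (14866 to 16670) in J20;WT, beside 53170 (51113 to 55288) for J20;GKO. Mgp was at 318 (204 to 473) and 2577 CPM (2140 to 3077), so both were higher in J20;GKO. Bnc2 was higher in J20;GKO as well, at 344 (225 to 505) and 1289 CPM (986 to 1655). So was Fbxl7, at 556 (401 to 752) and 1436 (1115 to 1821). For Bnc2 and Fbxl7 all GKO values lay below all WT values, but with the filter on low counts neither was past the threshold. Eya2 was at 265 (162 to 409) and 718 (497 to 1004). Slc38a2 was at 967 (758 to 1216) and 2197 (1795 to 2662), and Col25a1 at 106 (45.7 to 209) and 1162 (875 to 1512). Eya2, Slc38a2 and Col25a1 were thus also higher in J20;GKO. Their WT and GKO values overlapped, so they give no direction to compare this pair with. Prkg1 was lower in J20;GKO, at 1139 (911 to 1407) and 84.5 CPM (23.0 to 216), and the intervals of Lum, Slc4a10 and Foxp2 overlapped. Slc7a11 was at 4119 (3674 to 4604) and 1352 CPM (1041 to 1726), and Apoe at 8954 (8292 to 9655) and 4753 (4152 to 5416), both higher in J20;WT. The astrocyte markers were also higher in J20;WT, at 5046 (4552 to 5580) against 1204 CPM (912 to 1560), and so were the neuron markers, at 3219 (2827 to 3650) against 444 (275 to 678). The part of these cells' RNA in the differences was not tested.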

How the data were processed

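Nuclei of the hippocampus of 8 mice were sequenced on the 10X Genomics platform. The deposited matrices hold UMI counts per gene and nucleus, which the authors made with Cell Ranger on the mouse genome mm10 and read with Seurat 3.0 in R 3.6.2. Nuclei were selected and summed per mouse and side in Python 3.11.15 (numpy 2.4.6, pandas 2.3.3, scipy 1.17.1, and matplotlib 3.10.9 for figures). Kept nuclei per mouse held 21020159 to 43310978 UMIs. Gene tests used edgeR 4.0.16 (TMM scaling, filterByExpr, quasi-likelihood test, Benjamini-Hochberg adjustment over all genes tested) in R 4.3.3, with DESeq2 1.42.0 as the alternative, and the fits were tested on simulated data. Shares of nuclei were compared by 2-sided exact permutation tests over mice. Intervals are exact (Poisson for levels, Clopper-Pearson for shares) and cover counting error only, and a count of 0 was set to a floor of 3 UMIs over the group.

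Named genes were the gate genes, list members and, per comparison, up to 12 genes in each direction with the largest fold change among those past the threshold with at least 50 UMIs and 1 direction in every mouse. The text gives values for only some of these genes, and 1 is not reported here. Members and lists were chosen with earlier results of these data known. The alternatives changed the tool, scaling, filters, gate, batch or block terms and the mice included. No doublet caller was run.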

Additional observations from a re-analysis of the deposited data

Results flagged for a closer look

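Of 52 measures over 8 mice (nuclei, depth and marker lists on each side), 5 had 1 mouse far from the others, by the gap to the nearest mouse over the whole range. Chance alone flags about 1 in 20 groups. The fibroblast share of kept nuclei was 1.10% in GKO 1 and 0.326% to 0.600% in the other mice. The neuron markers summed to 7366 CPM on the mural side of WT 1, against 711 to 1341 in the others, and the OPC markers there to 2601 CPM against 180 to 540. Border macrophage markers had 2 UMIs on the mural side, both in GKO 1 (29.8 CPM), and on the fibroblast side were at 291 CPM in J20;WT against 0 to 16.9 (24 UMIs over all mice). Of the fibroblast-side nuclei 1 held border macrophage markers past the limit for other cell types, and 22 UMIs of the list lay in the 19 members with a larger sum of exactly 3 UMIs. What sets these mice apart was not tested.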

How the results depend on the processing

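Without the filter on low counts the number of genes past the threshold was 601 for mural against fibroblast, 563 for mural against endothelial, 600 for fibroblast against endothelial, and 12 (mural) and 11 (fibroblast) for GKO against WT, Bnc2 and Fbxl7 among the last. The filter changes how many genes are tested. With Vtn left out of the gate, mural against fibroblast gave 282. Leaving out each mouse in turn gave 142 to 194, 107 to 184 (184 without WT 3, which tests more genes) and 151 to 210 genes in the same order of side comparisons. For GKO against WT it gave 0 to 0 on the mural side and 0 to 2 on the fibroblast side, where Kcnb2 and Slc47a1 were past the threshold without WT 3 and Htr2c without GKO 2 (genes named after their values were seen). In that comparison, with the gate of 5 UMIs and 0.2%, Slc38a2 was at 0.16, Eya2 at 0.047 and Foxp2 at 0.12, the reverse of their sign, and Fbxl7 at −0.17. Slc38a2 was at 0.089 without WT 1 and at −1.06 without GKO 1. The difference between GKO and WT ranged from −0.0601 to 0.0681 percentage points for the mural share of nuclei, with a reversed sign without GKO 3 (−0.0601) or WT 3 (−0.0323), from −0.0479 (without GKO 1) to 0.335 for the fibroblast share, and from −11.6 to 2.20 (without GKO 1) for the mural share of both sides. The mural share of nuclei was also reversed without nuclei passing both gates (−0.0693) and with Vtn left out (−0.0045). The cause was not tested.

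Of 53 named genes past the threshold between mural and fibroblast sides, 44 kept the call under every alternative that tested them. The exceptions were Cemip, Col1a1, Col4a5, Col4a6, Lamc1, Nupr1, Ptgds (only without the filter), Slc16a11 and Tgfbr3, with 0 reversed. Slc6a20a was at 0.079 without nuclei with markers of other cell types. Zic1 was at 0.24 there, at 0.086 without nuclei with Ttr at 1%, and from −0.17 to 0.067 without each mouse in turn (0.067 without WT 3, 0.035 without GKO 3). The 27 and 29 named genes of the comparisons with endothelium kept their calls under every alternative that tested them. With the replicate number as a block, GKO against WT gave 0 genes on both sides (27 and 54 at an unadjusted p under 0.05, edgeR). The exact sign-flip permutation p was 1, 0.75 and 0.75 for the 3 shares, and with 3 pairs this test cannot give a p under 0.05. The pairing is not in the labels. WT 1 and GKO 1 also share the first batch. Deviations of log2 CPM from the group mean were correlated over genes between a WT and a GKO mouse. Same-number pairs gave −0.045, 0.034 and −0.361 (mural) and 0.349, 0.004 and 0.054 (fibroblast). Pairs of different numbers gave −0.306 to 0.347 (mural) and −0.236 to 0.166 (fibroblast). Depth limits all values, as sides held 11 to 41 nuclei per mouse. The alternatives without Vtn and without Ttr nuclei were chosen after seeing the data.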
